A study of Mus musculus with 6 samples.

Results

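The glucocorticoid receptor gene Nr3c1 and 9 genes tied to its signalling were described in CD11b+ cells of the mouse spinal cord, with and without electroconvulsive seizures (ECS), seizures set off by a brief electrical stimulus. The genes were picked by symbol from the 47719 rows of the deposited expression table, and each of the 10 symbols had 1 row: Nr3c1, Nr3c2, Fkbp5, Tsc22d3, Sgk1, Klf9, Zbtb16, Ddit4, Errfi1 and Hsd11b1. All libraries came from Biozzi ABH mice, an inbred strain, aged 3 months. The ECS group had 3 sessions on consecutive days and was killed on the day after. The other group carries the label control and the description naive, but the treatment protocol speaks of sham sessions, so whether the control mice were handled like the ECS mice is not clear from the labels. Each group had 3 libraries of 5 pooled mice, so an n of 3 stands for pools, and the spread between single mice is not seen. Expression is in FPKM, the fragments counted for a gene divided by its transcript length in kilobases and scaled for library size. How the libraries were scaled is not given. The division by length allows levels of different genes to be set side by side. Values of a group are listed in the order of replicates 1, 2 and 3, and a log2 difference is ECS minus control on the scale of log2(FPKM + 1).

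Glucocorticoids, corticosterone in the mouse, are adrenal steroids that are released under stress. They enter the cell, bind the glucocorticoid receptor, free it from a complex with heat shock protein chaperones and move it to the nucleus, where it binds response elements in DNA and raises or lowers transcription. In microglia and other macrophages the receptor is known for restraining inflammatory genes, and Fkbp5, Tsc22d3 and Sgk1 are widely used as readouts of its activity.

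CD11b is an integrin of microglia and other myeloid cells, and 15 of 15 microglia markers, among them Itgam, Cx3cr1, Tmem119 and P2ry12, were above 0 in every library. Neutrophil markers were also above 0 in every library, with sums of 14406 to 25919 FPKM (control) and 11073 to 14390 FPKM (ECS). Erythroid markers, the hemoglobin genes among them, summed to 2231 to 32810 FPKM (control) and 7208 to 77318 FPKM (ECS), and in several libraries to more than the microglia markers. The 9 astrocyte markers summed to 13.2 to 25.02 FPKM (control) and 6.71 to 62.3 FPKM (ECS); Aldoc reached 49.2 FPKM in ECS 1, Gfap was at most 2.44 FPKM, and Aqp4 was listed at 0 in 4 of 6 libraries. In bulk RNA, fewer cells of a type and less RNA per cell cannot be told apart. ECS 1 was the library least like the others, where 1580 of the 11315 tested genes had an FPKM of exactly 0 (448 to 806 elsewhere). The number of reads per library is unknown, and the sum of FPKM ran from 729831 to 1009665.

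The receptor acts through a response element made of a pair of inverted arms: AGAACA, any 3 bases, and TGTTCT, the reverse complement of the first arm. Promoter windows of 300 bases (250 before to 50 after a transcript start, RefSeq, GRCm38.p6) were given for 8 members, 16 windows in all, since Sgk1 has 6 starts and Tsc22d3 has 3. Nr3c1 and Zbtb16 had no window. The full element, which reads the same on both strands, was in 1 of the 16 windows, of Sgk1, and in 3 of 32851 windows of all genes. A relaxed form (GNACA, any 3 bases, TGTNC, where N is any base), which overlaps the full element, was in 156 of the 32851 (0.475%) and in the same Sgk1 window only among the members. Single arms (AGAACA, either strand) were in 4 of the 16 windows and in 19.0% of all windows. A match is a run of letters, not a shown binding site, and no match says only that these letters are not in this window. The 250 bases before the start are shown for Sgk1, the member with the full element, for the Tsc22d3 start with a single arm, and for Fkbp5, the member whose values in the groups did not overlap. Capitals mark the arms and, in Sgk1, also the bases between them.
Sgk1 (chr10:21993640-21993889, plus strand): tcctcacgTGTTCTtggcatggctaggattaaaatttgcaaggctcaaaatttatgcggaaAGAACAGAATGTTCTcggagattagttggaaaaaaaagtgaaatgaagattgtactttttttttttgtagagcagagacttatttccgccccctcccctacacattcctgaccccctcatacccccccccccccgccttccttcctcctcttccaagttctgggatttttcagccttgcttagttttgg
Tsc22d3 (chrX:140600523-140600772, minus strand): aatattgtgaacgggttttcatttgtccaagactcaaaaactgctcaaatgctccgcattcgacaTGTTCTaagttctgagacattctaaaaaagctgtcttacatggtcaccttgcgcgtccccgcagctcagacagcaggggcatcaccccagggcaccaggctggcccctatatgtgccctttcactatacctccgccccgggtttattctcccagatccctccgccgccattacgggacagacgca
Fkbp5 (chr17:28486150-28486399, minus strand): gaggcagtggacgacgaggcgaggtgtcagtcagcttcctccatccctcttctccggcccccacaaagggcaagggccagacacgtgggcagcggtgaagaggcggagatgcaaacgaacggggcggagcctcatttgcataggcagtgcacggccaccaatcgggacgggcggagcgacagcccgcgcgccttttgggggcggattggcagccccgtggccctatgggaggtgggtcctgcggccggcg
In Sgk1 the full element lay at chr10:21993701-21993715, starting 189 bases before the transcript start that its window belongs to and 965 bases before the next annotated start. Besides it, the window held 1 more arm.

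The 10 genes spanned a wide range of levels. Sgk1 was the most abundant with a mean of 632 FPKM over the 6 libraries, followed by Tsc22d3 at 371, Errfi1 at 53.6, Hsd11b1 at 22.2, Nr3c1 at 17.6, Fkbp5 at 3.83, Klf9 at 3.53, Nr3c2 at 3.25, Zbtb16 at 0.788 and Ddit4 at 0.390. The ranges over libraries did not overlap between Tsc22d3 and Errfi1, Errfi1 and Hsd11b1, or Nr3c1 and Fkbp5. Other neighbours in this order overlapped: Sgk1 was above Tsc22d3 in 6 of 6 libraries although their ranges touched, while Hsd11b1 was above Nr3c1 in 4 of 6, Fkbp5 above Klf9 in 4 of 6 and Klf9 above Nr3c2 in 3 of 6. Sgk1 and Tsc22d3 ranked 150 and 254 by mean FPKM among the 11315 tested genes, those whose mean over the libraries reached 1 FPKM. Zbtb16 and Ddit4 fell under that filter, so 8 of the 10 members were tested.

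**Figure D1:**
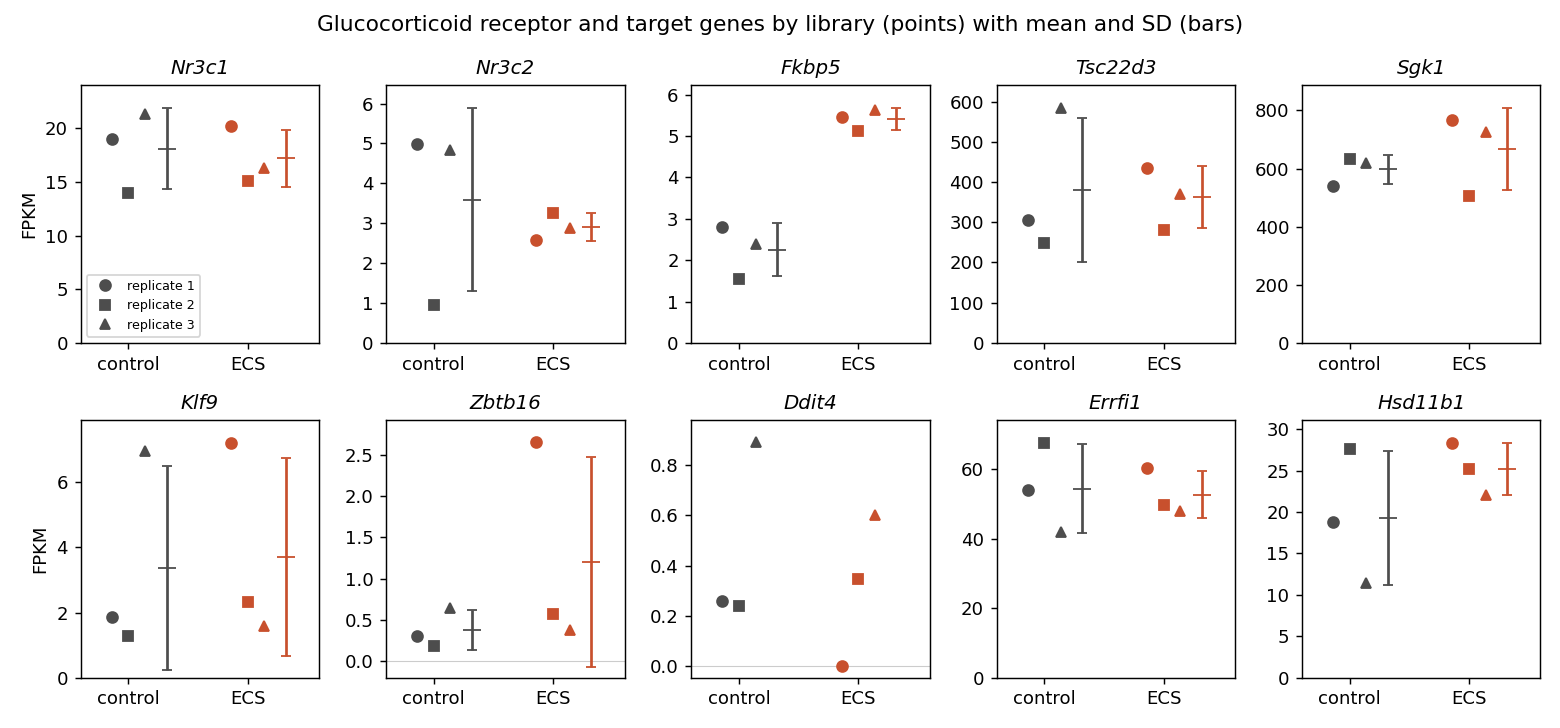
FPKM (linear axis, a scale of its own in each panel) of the 10 members in the 3 control (grey) and 3 ECS (orange) libraries; each point is 1 library of 5 pooled mice, and the bars are the mean with its SD, left out for Ddit4, which is listed at 0 in 1 library. The ECS points of Fkbp5 lie between 5.13 and 5.64 and its control points between 1.56 and 2.81, while the groups overlap in the other 9 panels.

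Between the groups, 1 member stood apart. Fkbp5 was higher in every ECS library than in every control library, and its mean was 2.40 times the control mean. However, neither it nor any other member passed the test across all genes: limma on log2(FPKM + 1) called 0 of the 8 tested members higher and 0 lower in ECS at an adjusted p under 0.05, where the share called among all 11315 genes was 0.00% in each direction. By the unadjusted limma p, 1 of 8 members (Fkbp5) was under 0.05, with ECS higher, against 1.71% of all genes with ECS higher, 1.94% lower and 3.66% in all. The groups did not overlap for 1 of 8 members, with ECS higher, against 3.70% of all genes with ECS higher, 3.79% lower and 7.49% in either direction. Of the 8, 5 had a log2 difference above 0 and 3 below, with a median of 0.07, and over all tested genes 49.2% were above 0 and the median was -0.01.

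Fkbp5 encodes a co-chaperone that binds the receptor complex with Hsp90 and lowers its affinity for the hormone, and its own transcription is induced by the receptor, so that it forms a short feedback loop. It was at 2.81, 1.56 and 2.40 FPKM in the control libraries and 5.47, 5.13 and 5.64 in the ECS libraries. The lowest ECS library was 1.83 times the highest control library, and the 3 ECS values were close together. Group means were 2.25 ± 0.638 (control) and 5.41 ± 0.259 FPKM (ECS; SD, n = 3 each). Its log2 difference was 1.00 ± 0.40 (SE; 95% interval 0.07 to 1.92), with a limma adjusted p of 1.00 and the 327th smallest p of the 11315. An exact two-sided permutation test of its 6 values gave p = 0.1, the smallest that 3 against 3 can give. Any gene whose groups do not overlap gets this p, so it adds nothing to the separation. Fkbp5 is a gene at low level here, and the pseudocount of 1 makes its log2 difference smaller: with a pseudocount of 0.1 it was 1.27. With each library left out in turn, the log2 difference was between 0.83 and 1.12. However, the unadjusted limma p was above 0.05 in each of these fits, between 0.0534 and 0.102.

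Values of other cells' markers are given beside this difference, and their part in it was not tested. Monocyte and border-associated macrophage markers summed to 960.3 to 1576 FPKM (control) and 1025 to 1304 (ECS), and of the 11 genes 6 were above and 5 below 0 in log2 difference (median 0.26, 0 called). The 5 below 0 were Ly6c2 (-0.73), Ccr2 (-0.55), Plac8 (-0.22), Mrc1 (-0.03) and F13a1 (-0.01). Of the 11 genes, 2 did not overlap between the groups, both with ECS higher, against 3.70% of all tested genes. These 2 were chosen after their values were seen. Cbr2, a carbonyl reductase gene, was at 63.7, 34.8 and 15.1 FPKM in the control libraries and 83.2, 109.5 and 86.3 in the ECS libraries, with a log2 difference of 1.48 ± 0.49 (SE). Clec10a, a lectin receptor gene, was at 40.1, 62.9 and 22.2 FPKM in the control libraries and 213, 69.2 and 73.9 in the ECS libraries, with a log2 difference of 1.40 ± 0.54 (SE). The limma adjusted p was 1.00 for both.

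All 12 neutrophil markers had lower values in ECS (median log2 difference -0.55, 0 called). The groups did not overlap for 1 of them, Ngp, against 3.79% of all tested genes with ECS lower. Of the 15 microglia markers, 13 had lower and 2 higher values (median -0.10), with sums of 10019 to 14644 FPKM (control) and 8574 to 13435 (ECS). Fcrls, an Fc receptor-like gene of microglia, was the 1 of these 15 without overlap, against the same 3.79% of all tested genes. It was at 213, 170 and 146 FPKM in the control libraries and 100.04, 78.2 and 101.6 in the ECS libraries. Its log2 difference was -0.90 ± 0.25 (SE). Of the 7 erythroid markers, 6 had higher values in ECS, with a median log2 difference of 0.71, but the sums ranged widely within both groups. Endothelial and mural markers had lower values in ECS for 12 of 13 tested (median -0.34; sums of 51.0 to 503 FPKM in control, 50.8 to 381 in ECS). Oligodendrocyte markers had higher values for 6 of 7 tested (median 0.18; sums of 73.5 to 191 FPKM in control, 67.4 to 241 in ECS), and lymphocyte markers for 4 of 7 tested (median 0.06; sums of 112 to 320 FPKM in control, 93.8 to 199 in ECS), with the T cell gene Trbc2 listed at 0 in all 6 libraries. None of these lists had a gene called.

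**Figure D2:**
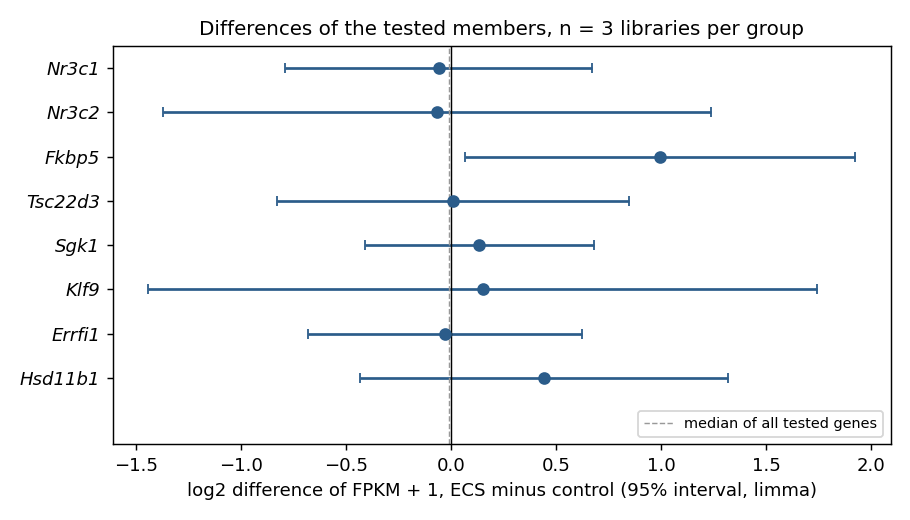
Log2 difference of FPKM + 1, ECS minus control, of the 8 tested members with 95% intervals from limma; the dashed line is the median of all tested genes (-0.01). The interval of Fkbp5 runs from 0.07 to 1.92, before any adjustment for the number of genes, and the other 7 intervals include 0.

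The receptor itself did not differ detectably. Nr3c1 was at 19.0, 13.9 and 21.3 FPKM in the control libraries and 20.2, 15.1 and 16.3 in the ECS libraries. Its highest and lowest values were both in control, and the ECS values lay between them. The log2 difference was -0.06 ± 0.31 (SE), with a 95% interval from -0.79 to 0.67, so the true difference may be of either sign within these bounds. The bounds are not a limit of detection: the larger difference of Fkbp5 was not called either. Nr3c2 encodes the mineralocorticoid receptor, which binds corticosterone with higher affinity and is thus occupied at lower hormone levels. It was at 4.98, 0.942 and 4.84 FPKM in the control libraries and 2.59, 3.26 and 2.87 in the ECS libraries. Control 2 was far under the rest and the other control libraries were above all ECS libraries, which left a log2 difference of -0.07 ± 0.56 (SE; 95% interval -1.37 to 1.24). Without control 2 it was -0.60. Nr3c1 exceeded Nr3c2 in every library, by 3.82, 14.8 and 4.40 times in the control libraries and 7.81, 4.64 and 5.67 times in the ECS libraries.

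Hsd11b1 encodes the enzyme of the endoplasmic reticulum that regenerates active corticosterone from its inactive 11-keto form inside the cell. It was at 18.8, 27.6 and 11.4 FPKM in the control libraries and 28.3, 25.2 and 22.03 in the ECS libraries. The ECS libraries were above control 1 and control 3, but control 2 lay within them. Group means were 19.3 ± 8.08 (control) and 25.2 ± 3.14 FPKM (ECS; SD, n = 3 each). The log2 difference of 0.44 ± 0.37 (SE; 95% interval -0.43 to 1.32) was 0.13 without control 3 and 0.73 without control 2. From start to end, Hsd11b1 overlaps Lamb3 (mean 3.999 FPKM) and 4930570N18Rik (mean 4.25 FPKM) on the other strand. Whether any exons are shared was not checked, and no source used here says whether counting used strand. Whether reads of these genes entered the Hsd11b1 values is thus not known. Of 6 further genes that set how much steroid reaches the receptor, 4 were tested and 0 were called in either direction. H6pd, which supplies Hsd11b1 with NADPH, was at 3.04, 4.36 and 5.03 FPKM in the control libraries and 25.8, 4.25 and 6.30 in the ECS libraries. ECS 1 was far above the rest, ECS 3 was above every control library, and ECS 2 lay within the control range. Hsd11b2, which inactivates corticosterone, was listed at 0 in all 6 libraries. The drug efflux pump genes, which export steroids, were low: Abcb1b was listed at 0 in ECS 1 and at 6.03 to 12.98 FPKM in the other libraries, and Abcb1a was between 0.293 and 5.84. Srd5a1, a steroid reductase gene, was at most 2.09 FPKM.

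The chaperones and co-chaperones that hold the receptor ready for the hormone differed widely in level. Hsp90ab1 and Hspa8 averaged 2114 and 980 FPKM over the 6 libraries, and Dnaja1 and Fkbp4 9.21 and 5.84. Hsp90ab1 was at 2090, 1974 and 2461 FPKM in the control libraries and 2799, 1524 and 1835 in the ECS libraries, and its log2 difference was -0.13 ± 0.27 (SE). Fkbp4, the co-chaperone that competes with the product of Fkbp5 and favours transport to the nucleus, was at 4.65, 3.22 and 7.39 FPKM in the control libraries and 9.14, 5.61 and 5.01 in the ECS libraries. Its groups overlapped, and the log2 difference was 0.34 ± 0.44 (SE). Of 11 chaperone and co-chaperone genes, 0 were called in either direction, 3 had higher and 8 lower values in ECS, and the median log2 difference was -0.15. Dnajb1 (log2 difference -0.48 ± 0.28, SE) and Hspa8 (-0.27 ± 0.21, SE) had the smallest p of this list. Others named by rule (Hsp90aa1, Ptges3, Stip1 and Dnaja1) had log2 differences between -0.40 and -0.15.

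Of 13 coactivators, corepressors and partner factors of the receptor, 0 were called, 8 had higher and 5 lower values, and the median log2 difference was 0.06. Ep300, a histone acetyltransferase gene, was at 16.0, 4.65 and 36.8 FPKM in the control libraries and 30.7, 50.1 and 49.1 in the ECS libraries. Only control 3 reached into the ECS range, and the log2 difference was 1.49 ± 0.66 (SE; 95% interval -0.06 to 3.04) with a limma adjusted p of 1.00. The corepressor gene Ncor1 averaged 452 ± 39.2 (control) and 456 ± 39.9 FPKM (ECS), and the coactivator gene Ncoa1 13.1 ± 2.63 and 15.6 ± 2.49 FPKM (SD, n = 3 each). Nrip1, a corepressor gene of nuclear receptors, had a log2 difference of 0.41 ± 0.29 (SE) and Nfkb1, which encodes an NF-kB subunit, of 0.23 ± 0.25 (SE).

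The groups overlapped for the target genes with high levels, and whether their differences were unlike that of Fkbp5 was not tested. Tsc22d3 encodes the glucocorticoid-induced leucine zipper protein, which binds and restrains NF-kB and AP-1. It was at 306, 248.6 and 583 FPKM in the control libraries and 436, 281 and 370 in the ECS libraries. Control 3 was the highest library and control 2 the lowest, with the ECS libraries between them. The log2 difference was 0.01 ± 0.36 (SE; 95% interval -0.83 to 0.85), and it was -0.24 without control 2 and 0.37 without control 3. Sgk1 encodes a serum- and glucocorticoid-regulated kinase that acts on ion channels and transcription factors. It was at 541, 633 and 620 FPKM in the control libraries and 766, 505 and 727 in the ECS libraries. ECS 1 and ECS 3 were above every control library and ECS 2 below every one, so the log2 difference of 0.14 ± 0.23 (SE; 95% interval -0.41 to 0.68) was within the spread. Without ECS 2 it was 0.32 and still not called.

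Klf9 encodes a Krüppel-like transcription factor. It was at 1.85, 1.28 and 6.96 FPKM in the control libraries and 7.20, 2.33 and 1.59 in the ECS libraries. Each group held 1 high library, control 3 and ECS 1, and 2 low ones. The log2 difference was 0.15 ± 0.68 (SE; 95% interval -1.44 to 1.74) and turned to -0.34 without ECS 1. Errfi1, which encodes an inhibitor of the epidermal growth factor receptor, was at 54.0, 67.6 and 42.0 FPKM in the control libraries and 60.4, 49.7 and 48.1 in the ECS libraries. The ECS values lay inside the control range, with a log2 difference of -0.03 ± 0.28 (SE; 95% interval -0.68 to 0.62). All 8 tested members had a limma adjusted p of 1.00.

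The lowest members were not tested. Zbtb16, a zinc finger transcription factor gene, was at 0.305, 0.181 and 0.640 FPKM in the control libraries and 2.66, 0.566 and 0.371 in the ECS libraries. Only ECS 1 stood out, and the other ECS libraries lay within the control range. Ddit4, which encodes an inhibitor of the growth kinase complex mTORC1, was at 0.259, 0.239 and 0.891 FPKM in the control libraries, was listed at 0 in ECS 1, and was at 0.347 and 0.603 in ECS 2 and 3. These values are too low to compare. With no filter on low values, Zbtb16 had a log2 difference of 0.55 ± 0.44 (SE) and Ddit4 of -0.15 ± 0.26 (SE), and neither was called.

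**Figure D3:**
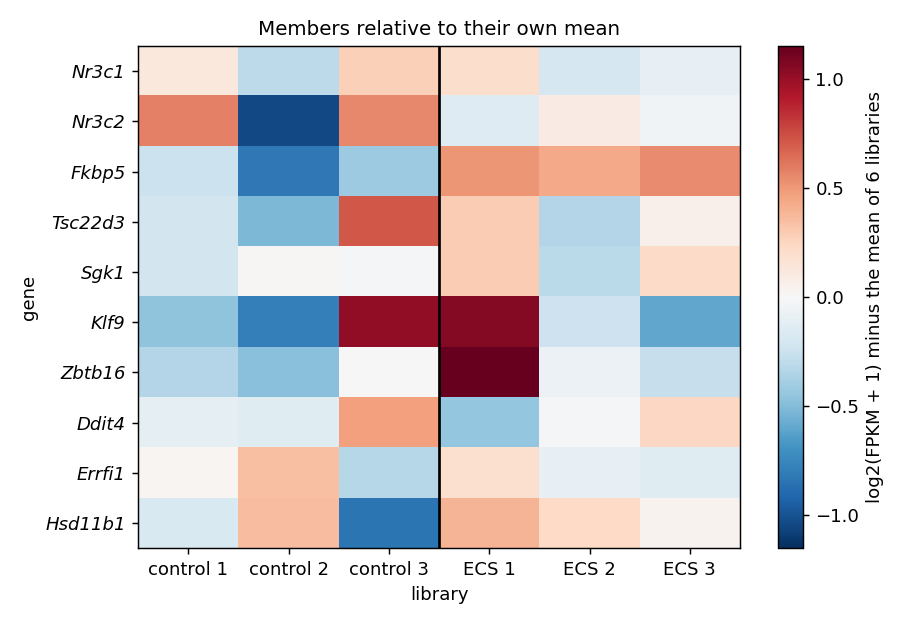
Log2(FPKM + 1) of each member minus its own mean over the 6 libraries (colour), by gene and library, with a line between the groups. Fkbp5 is the only member below its mean in all control libraries and above it in all ECS libraries, and control 2 holds the lowest value of 6 of the 10 members.

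Single libraries held many of the members' extreme values. Control 2 had the lowest value of 6 of the 10 members (Nr3c1, Nr3c2, Fkbp5, Tsc22d3, Klf9 and Zbtb16) and the highest value of 1, Errfi1. Control 2 was also the library with the highest summed neutrophil markers (25919 FPKM) and the highest FPKM total (1009665), and their part in these values was not tested. ECS 1 held the highest value of 4 members (Sgk1, Klf9, Zbtb16 and Hsd11b1), and control 3 of 3 (Nr3c1, Tsc22d3 and Ddit4). Without control 2 the log2 difference of Fkbp5 was 0.83, with an unadjusted limma p of 0.102. Its groups did not overlap, so leaving out 1 library could not make them overlap. The part of control 2 in this difference was not tested. By the smallest root mean square difference between centred log2(FPKM + 1) profiles over the 6 libraries, among genes whose mean reached 10 FPKM, the genes most like Nr3c1 were Eef2 (0.0449), Tapt1 (0.0806) and Srrt (0.0817), and those most like Fkbp5 were Gpaa1 (0.185), Cct7 (0.208) and Stk11ip (0.209). The SD of the own profile was 0.21 for Nr3c1 and 0.53 for Fkbp5. These are the closest of 4563 and 4564 candidates over only 6 values, so a close match does not show shared regulation.

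Of 30 further genes known to be induced by glucocorticoids, 29 were tested and 0 were called in either direction. Higher values in ECS were seen for 22 and lower for 7, with a median log2 difference of 0.08. The unadjusted p was under 0.05 for 1, Anxa1, and the groups did not overlap for 1 with ECS higher, Fam107a, and 1 with ECS lower, Anxa1. Over all tested genes these shares were 3.66%, 3.70% and 3.79%, so counts of 1 in 29 are near the background. Anxa1 encodes annexin A1, an anti-inflammatory protein that neutrophils also hold in quantity. It was at 646, 1099 and 1276 FPKM in the control libraries and 370, 574 and 429 in the ECS libraries. The lowest control library was thus above the highest ECS library, in the direction opposite to Fkbp5, with a log2 difference of -1.10 ± 0.32 (SE; 95% interval -1.84 to -0.36) and a limma adjusted p of 1.00. Neutrophil markers summed to 14406, 25919 and 18066 FPKM in the control libraries and 13244, 11073 and 14390 in the ECS libraries, and their part in the Anxa1 values was not tested.

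Fam107a, a stress-responsive actin-binding protein gene, was at 0.588, 2.90 and 1.59 FPKM in the control libraries and 2.93, 6.15 and 5.999 in the ECS libraries. Its groups did not overlap, but control 2 and ECS 1 were nearly equal, and the log2 difference was 1.20 ± 0.52 (SE; 95% interval -0.03 to 2.43). Birc3, an inhibitor of apoptosis gene, had a log2 difference of -0.88 ± 0.40 (SE), and Arrdc2, an arrestin domain gene, of 1.18 ± 0.76 (SE). The acute response genes were high in both groups: Dusp1, a MAP kinase phosphatase gene, averaged 1828 ± 212 (control) and 1785 ± 404 FPKM (ECS), and the clock gene Per1 211 ± 38.0 and 227 ± 68.3 FPKM (SD, n = 3 each). Cebpd, a transcription factor gene, averaged 29.9 ± 7.50 and 31.0 ± 3.05 FPKM. Hif3a, chosen after its values were seen, reached 110 FPKM in ECS 1, with values from 0.379 to 0.628 elsewhere. Lcn2 of this list is also a neutrophil marker, and Cd163 and Mrc1 are also macrophage markers.

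**Figure D4:**
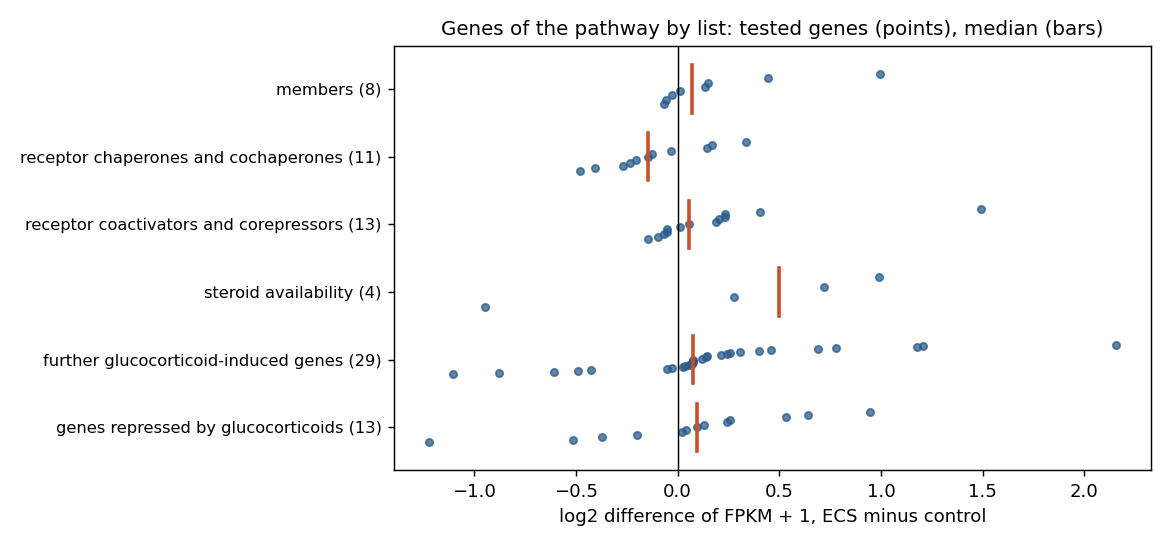
Log2 difference of FPKM + 1, ECS minus control, of the tested genes of each list (points; number tested in brackets) with the median of the list (orange bar). The medians lie between -0.15 and 0.10 except for the 4 genes of steroid availability, at 0.50, and the highest point, at 2.16, is Hif3a.

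Genes that glucocorticoids are known to repress were not lower as a list. The 14 such genes were those of cytokines, chemokines, inflammatory enzymes and the adhesion molecule Icam1. Of these, 13 were tested and 0 were called. In ECS, 9 had higher and 4 lower values, and the median log2 difference was 0.10. Il1b, a cytokine gene, was at 393, 304 and 430 FPKM in the control libraries and 344, 770 and 588 in the ECS libraries, and ECS 1 lay within the control range. Tnf had a log2 difference of 0.26 ± 0.41 (SE) and the chemokine gene Cxcl1 of 0.95 ± 0.55 (SE). The cytokine gene Il6 was at 40.1, 44.2 and 54.8 FPKM in the control libraries and 6.49, 40.7 and 25.1 in the ECS libraries, with a log2 difference of -1.22 ± 0.61 (SE). Mmp9, a matrix protease gene, had one of -0.51 ± 0.27 (SE).

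In GRCm38, with positions from GENCODE M21, Nr3c1 lies on chromosome 18 (39410545 to 39519421, minus strand), Nr3c2 on chromosome 8 (76899442 to 77245012, plus strand), Hsd11b1 on chromosome 1 (193221634 to 193264075, minus strand) and Fkbp5 on chromosome 17 (28399094 to 28517527, minus strand). Sgk1 (21882184 to 21999903, plus strand) and Ddit4 (59949669 to 59951834, minus strand) lie on chromosome 10, and Tsc22d3 on chromosome X (140539528 to 140600659, minus strand). Klf9 lies on chromosome 19 (23141226 to 23168134, plus strand), Zbtb16 on chromosome 9 (48654297 to 48836222, minus strand) and Errfi1 on chromosome 4 (150853919 to 150868892, plus strand). All 10 are protein-coding genes. The deposited loci of Nr3c2, Errfi1 and Hsd11b1 reach beyond these bounds, and the annotation behind the values is not stated.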

How the data were processed

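Spinal cords were dissociated, myelin was removed with Percoll, CD11b beads selected the cells, and a SENSE kit turned poly(A) RNA into libraries, per the labels' protocols. The deposited values are FPKM, made by the authors with 1 column per library. The submitters' processing notes name TopHat2, Cufflinks, Cuffnorm and GRCm38. Versions, annotation, strand use and the scaling across libraries: not given in the sources used here. FPKM keeps no read number: no step size put more than 27.4% of low values within 0.1 of a whole multiple, where 20% is the share for 1 step size by chance. An exact 0 can be a failed estimate, so those genes are given by library.

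FPKM was transformed as log2(FPKM + 1), and 11315 genes (mean over the 6 libraries of 1 FPKM or more) were tested with limma 3.58.1 (R 4.3.3, variance trend, ECS minus control, two-sided, Benjamini-Hochberg over all genes tested, threshold 0.05). The method was tested on simulated data, where many of the changes put in were not called. A gene that was not called here may thus still differ. For a repeated symbol the row of highest mean was used. Named genes were all members, the 4 smallest p of each pathway list and 13 genes picked by role. The members and lists were chosen with earlier results of these data known. Alternatives were other pseudocounts, filters, scalings and variance models, a replicate block and each library left out. Promoter sequences are from RefSeq (GRCm38.p6). Figures were drawn with matplotlib 3.10.9.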

Additional observations from a re-analysis of the deposited data

How the results depend on the processing

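Under each of the 19 alternatives to the main setting, 0 genes were called higher and 0 lower in ECS, with between 260 and 557 genes at an unadjusted limma p under 0.05. Fkbp5, Sgk1 and Hsd11b1 had a log2 difference above 0 under each alternative run, between 0.83 and 1.27, 0.02 and 0.32, and 0.13 and 0.73. The unadjusted p of Fkbp5 was between 0.0179 and 0.102 and its adjusted p between 0.874 and 1.00. A filter at a mean of 5 FPKM removed Fkbp5, Nr3c2 and Klf9.

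The other 5 tested members changed sign under some alternatives, and the cause was not tested. With each library left out, the log2 difference was between -0.23 and 0.064 for Nr3c1, -0.60 and 0.21 for Nr3c2, -0.24 and 0.37 for Tsc22d3, -0.34 and 0.70 for Klf9, and -0.20 and 0.14 for Errfi1. Nr3c2 was at 0.012 with a pseudocount of 0.1 and at 0.025 with quantile normalization. Tsc22d3 was at -0.080 with libraries rescaled to the same FPKM total, -6.0e-05 with the median ratio, -0.045 with quantile normalization and -0.073 with library weights, and Klf9 at -0.16 with library weights. Rescaling to the same mean of microglia markers, chosen after the data were seen, shifted the median of all genes by 0.12, and Nr3c1 was then at 0.060, Nr3c2 at 0.052 and Errfi1 at 0.089, each below that shift.

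The labels number the libraries of both groups 1 to 3. The deviations of same-numbered libraries from their group means were barely correlated (r = -0.04, 0.10 and -0.11), so the numbers were not taken as pairs. With a replicate block 0 genes were called higher and 0 lower, and Fkbp5 had a log2 difference of 1.00 and an unadjusted limma p of 0.0786. The 95% interval of a log2 difference reached a median of 1.23 to either side over all tested genes, which limits what could be seen.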
